A study of Mus musculus with 3 samples.

Results

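Otx2 encodes a homeodomain transcription factor, and 4 Brachyury regions of the deposited list lay around this gene on mouse chromosome 14. They were taken as the regions on chromosome 14 whose midpoint fell within 100 kb of 49.287 Mb, the approximate start of Otx2 on build mm9, which gave 4 of the 150 regions on the chromosome and 4 of 3160 in all (0.127%). The place was chosen from the positions in the list itself, so the number of regions there describes the choice and is no finding. Chromatin immunoprecipitation with sequencing (ChIP-seq) was carried out on mesoendoderm cells that had been derived from D3 mouse embryonic stem cells in serum-free culture with Activin A, a ligand that acts through Nodal-type receptors. The labels give the strain of origin as (C3H/HeH x 101/H)F1. There were 3 libraries: 1 with each of 2 custom rabbit antibodies, both raised against residues 249 to 436 of Brachyury fused to GST, and 1 mock library with pre-immune IgG. All of them share this line and this differentiation protocol, per the labels. The data are 1 list of positions for the whole series, without a height, a score or a value of any library. Signal could therefore not be set against the mock or between antibodies, the read depth behind a region is unknown, and the identity of the cells could not be checked against marker genes.

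Brachyury, the product of the gene T, is a T-box transcription factor of the primitive streak, the nascent mesoderm and the notochord. OTX2 acts in the epiblast, in the anterior visceral endoderm and anterior mesendoderm, and later in the forebrain and midbrain, for which it is required. Its transcription is known to be controlled by enhancers close to the gene and by others far from it. Otx2 is transcribed from higher towards lower positions, so that higher positions lie upstream of it. The approximate extent used here, 49.278 to 49.287 Mb, came with the choice of the window and not from an annotation of mm9. In the RefSeq gene table of another assembly, GRCm38.p6, which served for names and order alone, the next gene beyond the start of Otx2 was the long non-coding RNA Otx2os1. The nearest protein-coding genes on that side were Exoc5, a subunit of the exocyst complex, then Ap5m1, a subunit of an adaptor complex, and Naa30, an N-terminal acetyltransferase. On the side of the 3′ end they were Tmem260, Peli2, a ubiquitin ligase of the Pellino family, and Ktn1, which encodes kinectin.

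The sequence just upstream of Otx2 is shown because the regions lie on either side of the approximate start of the gene. The letters under the regions themselves could not be read, since no mm9 sequence was used here. RefSeq lists 4 starts of Otx2 on GRCm38.p6, spread over 4910 bp. The 250 bases before the outermost one, chr14:48667645-48667894 of GRCm38.p6 on the minus strand, read 5′ to 3′ as follows, with capitals reserved for matches to the T-box core TCACAC or its reverse complement GTGTGA.
Otx2 promoter: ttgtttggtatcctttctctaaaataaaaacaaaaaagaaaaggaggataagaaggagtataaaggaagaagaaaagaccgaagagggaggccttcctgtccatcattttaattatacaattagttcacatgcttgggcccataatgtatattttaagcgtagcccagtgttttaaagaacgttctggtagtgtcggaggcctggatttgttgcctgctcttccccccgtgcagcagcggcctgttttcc
No capitals appear, because neither form of the core occurs in it. The window of 300 bases around each start (250 before it and 50 after it) was searched on both strands for the core and for the longer T-box site TCACACCT, which contains the core and reads AGGTGTGA on the other strand. Of the 4 windows at Otx2, 0 held the longer site and 0 the core. Among all 32851 RefSeq promoters of that length, 1.28% held the longer site and 14.5% the core. The absence of these letters from a window says nothing about binding elsewhere. Coordinates on GRCm38.p6 cannot be set beside those of the regions on mm9, other than as rough distances from the start.

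The 4 regions formed a pair at the gene and a pair far upstream of it. Region 1, at chr14:49274331-49275213 (mm9), was 883 bp wide. Its midpoint lay 12.2 kb from the approximate start on the 3′ side, and its nearer edge lay 2.79 kb beyond the approximate 3′ end of the gene. Region 2, at chr14:49282166-49283173, was 1008 bp wide and fell inside the approximate gene span. Its edges lay 3.83 and 4.83 kb from the approximate start. Of the 4, region 2 was thus the nearest to the start, and none (0) covered the approximate start itself. On GRCm38.p6 the innermost start of Otx2 lay 4910 bp from the outermost one, close to the farther edge of region 2 by distance alone. The start used on mm9 is approximate, so whether region 2 lies at that inner start cannot be told. Whether it lies in an exon or in an intron was not analysed here, because no mm9 annotation was used.

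The other pair lay upstream. Region 3, at chr14:49327362-49328071, was 710 bp wide, and its midpoint lay 40.7 kb upstream of the approximate start. Region 4, at chr14:49328973-49329547, was 575 bp wide, with its midpoint 42.3 kb upstream. Between them lay 901 bp. Whether they fall within Otx2os1, the next gene on that side in the order of GRCm38.p6, was not analysed here.

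**Figure D1:**
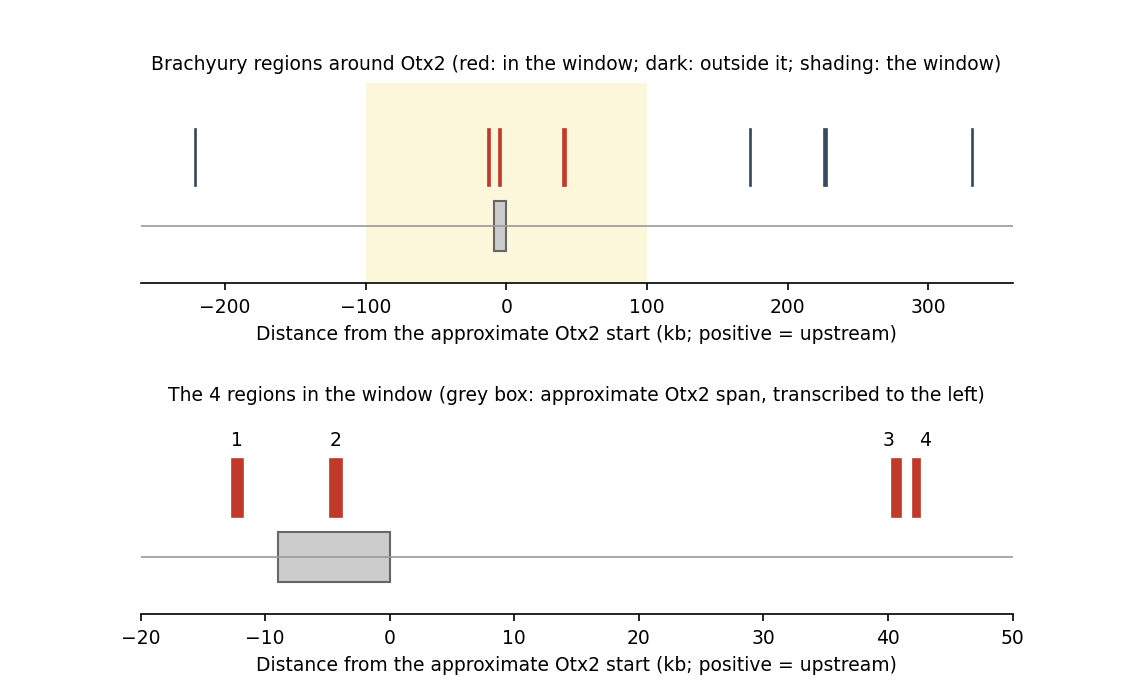
Positions of Brachyury regions around Otx2, as the distance in kb of each region from the approximate start (positive values are upstream). The upper panel shows the window of 100 kb on either side and the regions outside it, and the lower panel the 4 regions of the window, drawn to scale beside the approximate gene span. Regions 1 and 2 lie at and just beyond the gene, and regions 3 and 4 lie 40.7 and 42.3 kb upstream.

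The distances between the midpoints were uneven. Regions 1 and 2 were 7.90 kb apart, a distance reached or undercut by 149 of the 3140 pairs of neighbours in the list (4.75%). Regions 3 and 4 were 1.54 kb apart, as were 66 pairs or closer (2.10%). From region 2 to region 3 the step was 45.0 kb, and 439 pairs (13.98%) were as close. All 3 steps were well under the median of 345 kb between neighbours on chromosome 14 (quartiles 89.4 and 767 kb), as the choice of a dense window requires. The 4 regions together ran from 49274331 to 49329547, a span of 55.2 kb, and covered 3176 bp or 5.75% of it.

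Regions 3 and 4 may be counted as 1 or as 2. The list held 80 pairs of neighbours with a gap under 1 kb, 6 of them on chromosome 14. The gap of 901 bp at Otx2 was at the wide end of these: 3 of the 80 pairs had a wider one, and the median gap was 186.5 bp. When such neighbours were joined, the upstream pair became 1 region of 2186 bp centred 41.5 kb upstream, and 3 regions were left around Otx2. How the lists of the antibodies were combined is not given in the sources used here, so a single stretch of signal divided in the list and a pair of separate sites cannot be told apart.

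The membership did not hang on the exact start or on the size of the window. The same 4 regions were found with any limit on the distance from 42.3 kb up to, but not including, 174 kb. The centre could also be moved by 57.7 kb towards lower or by up to 74.0 kb towards higher positions without a change in the members. No member lay near the limit of 100 kb: the farthest was region 4, at 42.3 kb, and the nearest region outside lay upstream, at 174 kb. On the 3′ side the nearest region outside lay 221 kb from the start. The position of regions 1 and 2 relative to the gene depends more on the approximate extent. Region 2 would remain inside the gene if the start were off by less than 3.83 kb, and region 1 would touch it if the 3′ end were off by 2.79 kb.

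Regions continued upstream beyond the window. The next lay at chr14:49460682-49461304 (623 bp), 174 kb from the approximate start. A close pair followed at chr14:49513131-49513957 (827 bp) and chr14:49514132-49514890 (759 bp), 227 and 228 kb upstream. The last, at chr14:49618452-49618984 (533 bp), lay 332 kb upstream. With the 4 regions at Otx2 these made a stretch of 8 regions over 345 kb, in which each run of 4 neighbouring regions spanned under 200 kb. The stretch was singled out after its positions had been seen. It held 6 regions when neighbours with a gap under 1 kb were joined, and its widths ran from 533 to 1008 bp with a median of 734.5 bp. Which genes the 4 outer regions lie at was not analysed here.

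Places of that kind, where 4 or more midpoints lay within 200 kb and overlapping groups were joined, numbered 69 in the whole list. They held 319 regions, or 10.1% of the list. On chromosome 14 there were 3: the stretch from Otx2 upstream with 8 regions, a group of 4 at chr14:65935241-65988525, and a group of 4 at chr14:122689452-122883872. In the list as deposited, the stretch from Otx2 upstream held 8 regions, 4 of them outside the window, and the other 68 places at most 7. The stretch was singled out with its positions known, so this order and the counts that follow are no finding. With neighbours under 1 kb apart counted once, the stretch held 6, as did 3 other places, on chromosomes 2, 7 and 11. The number also grows with the joining of overlapping groups. With links of at most 50 kb, the 4 regions at Otx2 stood alone, while the place on chromosome 7, at chr7:26022708-26102231, kept 7 regions. Of the 3020 runs of 8 neighbouring regions, 2 were as short, this one and another on chromosome 7, at chr7:25857054-26102231, which spanned 245 kb.

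A window of 200 kb that held 4 or more regions was uncommon both on chromosome 14 and on the other autosomes. The intervals of the shares overlapped, but with 2 such windows on chromosome 14 this overlap decides nothing. With windows laid end to end between the outermost regions of each chromosome, 36 of 12558 (0.287%) held 4 or more. On chromosome 14 it was 2 of 572 (0.35%, Wilson 95% interval 0.0959% to 1.27%), and on the other autosomes 34 of 11281 (0.301%, interval 0.216% to 0.421%). On X it was 0 of 705, with an upper limit of 0.426% by 3 counts of the total and of 0.542% by the Wilson 95% interval. X held 15 regions in all, and no window there held more than 1. Most windows were empty (80.9% on chromosome 14), and the mean number of regions in a window was 0.260 on chromosome 14 and 0.264 on the other autosomes. The 2 windows on chromosome 14 were not centred on Otx2. One held 5 regions, namely regions 3 and 4 and the 3 upstream of them as far as 49514890, and the other the group of 4 near 65.9 Mb. The share on chromosome 14 thus rests in part on the chosen place. With windows moved in steps of 20 kb, the shares were 0.315% on chromosome 14, 0.265% on the other autosomes and 0.253% over all chromosomes. The intervals treat windows as independent and cover counting error only.

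**Figure D2:**
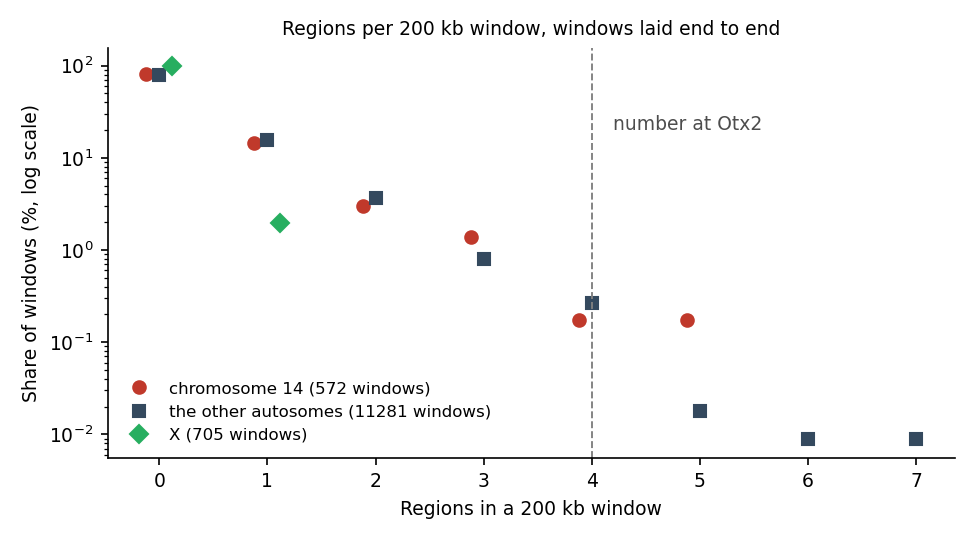
Share of windows of 200 kb, in percent on a log scale, by the number of regions in the window, for windows laid end to end on chromosome 14 (circles), on the other autosomes (squares) and on X (diamonds); numbers with no window are not drawn. The dashed line marks the 4 regions at Otx2, and 0.35% of the windows on chromosome 14 and 0.301% on the other autosomes lie at or beyond it.

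Windows centred on a region always hold that region, unlike windows laid end to end. They still do not match the choice made at Otx2, since that place was picked for holding several regions. Such windows held 4 or more regions, the central one included, for 136 of the 3160 regions (4.3%). On chromosome 14 it was 8 of 150 (5.33%, Wilson 95% interval 2.73% to 10.2%), which were the 4 regions at Otx2 and the 4 near 65.9 Mb, and on the other autosomes 128 of 2995 (4.27%, interval 3.61% to 5.06%). By this share chromosome 14 ranked 6 among the 20 chromosomes, behind chromosomes 2, 11, 19, 7 and 4. Its 8 regions stand for 2 places, and that at Otx2 was the chosen one. Windows on neighbouring regions overlap and share members, so the intervals, which treat them as independent, are too narrow. Windows on a region held more than 4 for 36 regions, all of them on other chromosomes, and at most 7.

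In span the 4 regions stood near the short end of the list. Span is measured on the same positions that the place was chosen by, so its rank describes the choice and is no finding. Of 3100 runs of 4 neighbouring regions, 13 (0.419%) spanned 55.2 kb or less, at 8 places that do not overlap. The median run of 4 spanned 1447 kb in the list and 1506 kb on chromosome 14. Of the 147 runs on chromosome 14, the shortest was the group near 65.9 Mb, with 53.3 kb, followed by that at Otx2. The next shortest, 158 kb, began at the region 174 kb upstream of Otx2 and belonged to the same stretch.

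The arrangement of a pair and a pair can be set beside the other chains of the same size. Chains in which each midpoint lay within 50 kb of the next and which held exactly 4 regions numbered 7, of which 2 were on chromosome 14. Their spans ran from 24.1 to 80.2 kb, and that at Otx2 was the third longest. The step from region 2 to region 3 took 82.7% of the distance between the outer midpoints at Otx2. In 1 other chain, on chromosome 1 at chr1:88383520-88425408, a single step took more (92.1%), and it set 1 region apart from the 3 others. The group near 65.9 Mb was spaced more evenly, with a longest step of 27.2 kb (51.8%). After joining of neighbours with a gap under 1 kb, 3 of the 7 chains still held 4 regions and the remaining 4, that at Otx2 among them, held 3. With 7 chains and no replicates, no test was made of these differences.

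**Figure D3:**
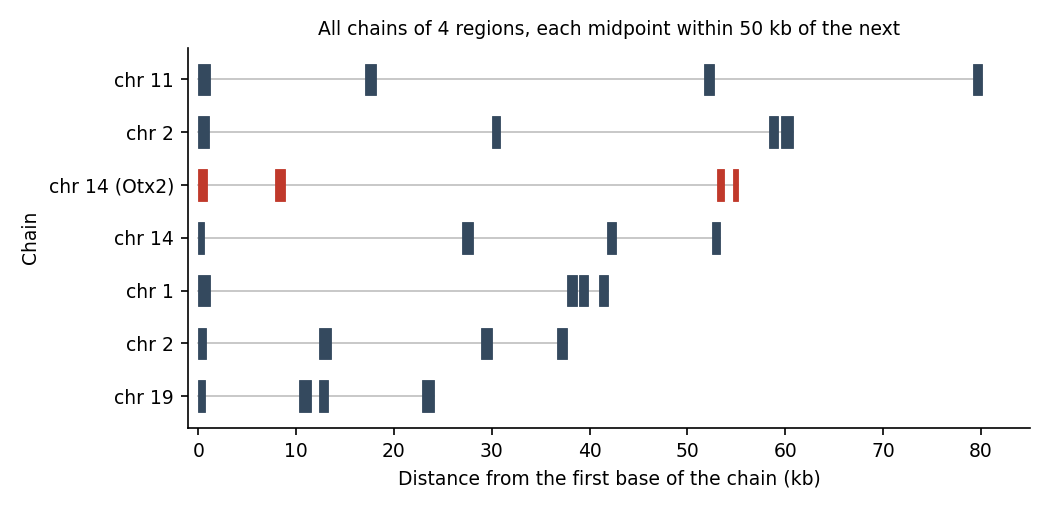
The 7 chains of exactly 4 regions in the whole list, 1 per line and ordered by span, as the distance in kb from the first base of the chain, with each region drawn to scale. In the chain at Otx2 (red) a pair and a pair are separated by a step of 45.0 kb, which is 82.7% of the distance between its outer midpoints.

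Widths were not used in choosing the regions, and those at Otx2, taken as deposited, were ordinary for the list. The list also held very narrow regions, 11 of them under 50 bp. How the antibodies' lists were combined is not known, so a width need not be that of a peak of either antibody. They measured 883, 1008, 710 and 575 bp from region 1 to region 4, with a median of 796.5 bp, against 850 bp in the whole list (quartiles 680 and 1019 bp) and 875 bp on chromosome 14 (quartiles 712.75 and 1080.5 bp). The pair at the gene was wider than the list's median and the upstream pair narrower. Region 2 was wider than 74.2% of the list and region 1 than 55.6%. Region 3 was wider than 28.9% and region 4 than 11.0%, so region 4 was the member outside the quartiles of the list. The 2 groups of widths did not overlap, but with a pair of regions in each and 1 list no test was possible. Nor is this particular to Otx2 among the 7 chains of 4. The first and last pairs were also apart on chromosome 1 (1222 and 963 against 878 and 899 bp). The same held on chromosome 11 (1179 and 1165 against 997 and 937 bp), while in the remaining chains of 4 they overlapped. The median width at Otx2 was also the lowest of the 7 chains of 4, whose medians ran up to 1103 bp. Among longer chains it was not: medians were 743 bp (7 regions, chromosome 7) and 767 bp (5 regions, chromosome 2). Other chains of 5 had medians of 809 and 943 bp. Joining the upstream pair gave 2186 bp, of which 901 bp were the gap between them. The order of widths then turned, and the upstream region became the widest around Otx2. The difference in width between the pairs therefore rests on counting regions 3 and 4 apart.

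**Figure D4:**
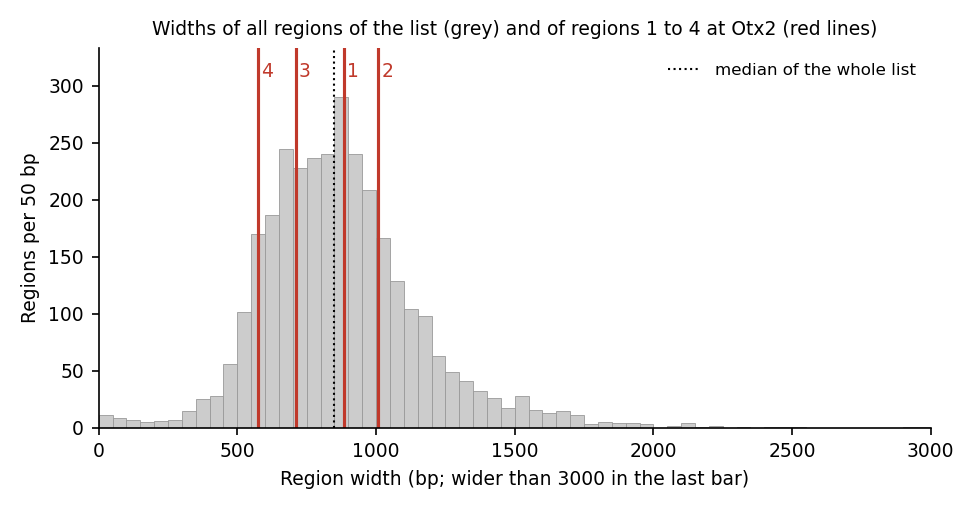
Widths in bp of all regions of the list, counted in steps of 50 bp (grey bars), with the median of the list (dotted line) and the widths of regions 1 to 4 at Otx2 (red lines). Regions 1 and 2 lie above the median of 850 bp, and regions 3 and 4 lie below it.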

How the data were processed

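The deposited list gives the chromosome, start and end of each region in base pairs, with no header. Per the submitters' processing notes, Bowtie, MACS2 and build mm9 were used, with no version or setting given. The sources used here do not say how the antibodies' peaks were combined or how the mock library was used. Starts were raised by 1, so that positions count from 1. A region was placed by its midpoint. Windows were counted with Python 3.11.15, numpy 2.4.6, pandas 2.3.3 and scipy 1.17.1 and plotted with matplotlib 3.10.9, and the counting was checked on simulated lists. Only full windows between the outermost regions of a chromosome were counted. No statistical test was made, since the list has no replicates. The genes named were to be Otx2, T, the 3 nearest protein-coding genes on each side and any non-coding gene at the start of Otx2. Otx2os1 was kept under the last heading as the next gene on that side. The members, the alternatives and the measures were chosen with earlier results of these data known. Sequences are from RefSeq (GRCm38.p6).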

Additional observations from a re-analysis of the deposited data

How the results depend on the processing

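Of 17 recomputed values, 8 moved beyond the limits set for them. The median spacing around Otx2 went from 7.90 to 26.8 kb with neighbours joined. This move was well over 1.5 times, but it was not counted among the 8, because it stayed within the SD between the 3 steps. Those steps are different distances at the same place and not replicates, so their SD is no measure of error. The number of regions around Otx2 was 4 within 50 kb of the start, 5 within 200 kb, 3 with neighbours joined and 2 when regions below the list's median width were dropped, which left regions 1 and 2. The share of windows with as many regions as Otx2, 0.287%, became 4.3% with windows centred on regions, 0.0279% with 50 kb on either side and 0.478% with 200 kb. It became 0.908% with neighbours joined (3 or more regions) and 1.78% with regions of at least the median width (2 or more). The number to be reached is lower in both. The share of 1.78% is also over another set of 11654 windows, with none on X. The median width around Otx2 was 1008 bp with neighbours joined, because the upstream pair then counts once. Places with 4 or more regions numbered 23 within 100 kb against 69 within 200 kb; both counts are an addition made with the list in view. No paired analysis was possible because the list has no value per library. Read depth is unknown, so sites around Otx2 that fell short of the list could not be judged.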
